A study of Rattus norvegicus with 38 samples.

Results

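Very broad domains of H3K27 acetylation in the rat substantia nigra (SN) were taken from the pooled SN peak list by their width alone. A domain was any peak on chromosomes 1 to 20 whose end lay 10000 bp or more beyond its start, and 501 of the 69744 SN peaks on these chromosomes met this rule. Because the domains were selected on width, their widths are given as a description and were not tested. The domains took up 0.718% of the SN peaks and 7.26% of the bases under them. The deposited SN list holds more peaks than the study counts for this region, so shares of all SN peaks here refer to the deposited list.

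The peaks came from H3K27ac ChIP-seq of SN and motor cortex tissue from 9 rats (male Lewis, aged 8 to 10 months), 5 of which received rotenone, an inhibitor of mitochondrial complex I, and 4 of which received vehicle. Rotenone was injected intraperitoneally at 2.8 mg/kg daily for 21 days, and tissue was taken 24 h after the final injection. The control samples are labelled PBS while their protocol text gives Miglyol as the vehicle, and the SN samples carry ventral midbrain as their source. The labels of all 4 input DNA runs give cortex. Reads of the rotenone and vehicle rats of a region were merged before peak calling, so there was 1 list per region with positions only and no height, score or read count. The spread between rats and the depth behind a peak are therefore unknown, no difference between regions could be tested, and rotenone could not be compared with vehicle from these lists. In bulk tissue a wide acetylated stretch may come from any of the cell types dissected, and more cells carrying the mark cannot be told apart from more of the mark per cell.

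H3K27ac is an acetyl group on lysine of histone H3 that marks active promoters and enhancers. Most acetylated stretches span a promoter or an enhancer and its flanking nucleosomes, while some loci carry the mark over long runs of chromatin. Such runs are known for lying at genes that are highly transcribed or that specify cell identity, including transcription factors and microRNA genes, and a run can hold several enhancers and promoters.

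MicroRNAs are shown first because their genes are short and their products are fixed by a few bases. MicroRNAs bind messenger RNAs mainly through the seed, bases 2 to 8 from the 5′ end, which is in capitals in the RefSeq mature sequences that follow. A microRNA gene was the name given to 10 domains, covering 8 genes, of which Mir9-1 and Mir297 were named for SN peaks and the others for cortex peaks that overlap a domain. The printed sequences are a selection. Mir3102 and Mir568 are left out, as are the other listed products of Mirlet7c2 and Mir29b1. For Mir125b1 only the printed sequence was available, so the seed of any other product of this gene is not shown. miR-9 is abundant in neural progenitors and brain, and its Mir9-1 and Mir9-2 genes give the same mature sequences, so their domains share a seed.
miR-9a-5p (Mir9-1 and Mir9-2): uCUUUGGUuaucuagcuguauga
miR-9a-3p (Mir9-1 and Mir9-2): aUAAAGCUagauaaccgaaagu
let-7c-5p (Mirlet7c2): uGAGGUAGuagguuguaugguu
miR-29b-3p (Mir29b1): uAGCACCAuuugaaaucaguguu
miR-125b-1-3p (Mir125b1): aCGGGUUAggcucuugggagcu
miR-297 (Mir297): aUGUAUGUgugcauguaugcaug

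The Mir9-1 domains lay end to end on chromosome 2, at chr2:173661108-173674800 (13.693 kb) and chr2:173674944-173693606 (18.663 kb) in mRatBN7.2. A single cortex peak of 36.004 kb covered both of them whole. The Mir9-2 domain, elsewhere on chromosome 2 at chr2:14173875-14194076, was 20.202 kb wide and was also covered whole by 1 cortex peak. Mirlet7c2, whose let-7 product is high in differentiated cells, was the name for a 19.217 kb domain at chr7:116772331-116791547, 97.3% of it covered. The Mir29b1 domain (chr4:59655617-59668455, 12.839 kb) was 99.3% covered and the Mir125b1 domain (chr8:41948617-41959219, 10.603 kb) was covered whole. Mir297 was named for a pair of domains on chromosome 10 that differed in cover. The 12.46 kb domain at chr10:98159525-98171984 was met by 4 cortex peaks with 73.3% of it covered, while the 10.162 kb domain at chr10:98210347-98220508 lay 98.1% within 1 cortex peak.

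Promoters are shown for 4 genes because the promoters of genes with a domain listed at a promoter differed widely in CpG content. CpG content is high in the CpG islands where many broadly used promoters lie. The spread was not particular to domains, with 3 to 51 CpG per promoter against 0 to 62 at narrower listed SN peaks. The windows are the 250 bases before and 50 after an annotated start, from RefSeq in GRCr8, a different build from the mRatBN7.2 used for the peaks, so they were matched by gene symbol only and their place inside a domain was not checked. CpG dinucleotides are in capitals. Slc2a1 had the widest domain listed at a promoter, and Sox2 the widest listed at the promoter of a transcription factor. Of the genes with 1 promoter in the table and a domain listed within 1 kb of a start, Git1 had the highest and Trim59 the lowest CpG count.
Slc2a1, chr5:138002272-138002571 in GRCr8, plus strand: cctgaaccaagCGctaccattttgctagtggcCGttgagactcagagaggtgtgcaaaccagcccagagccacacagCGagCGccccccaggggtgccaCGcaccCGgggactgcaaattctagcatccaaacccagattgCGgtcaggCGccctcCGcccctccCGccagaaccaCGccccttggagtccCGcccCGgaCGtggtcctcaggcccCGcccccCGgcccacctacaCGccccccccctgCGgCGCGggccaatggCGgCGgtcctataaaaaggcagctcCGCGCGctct
Sox2, chr2:119464881-119465180 in GRCr8, plus strand: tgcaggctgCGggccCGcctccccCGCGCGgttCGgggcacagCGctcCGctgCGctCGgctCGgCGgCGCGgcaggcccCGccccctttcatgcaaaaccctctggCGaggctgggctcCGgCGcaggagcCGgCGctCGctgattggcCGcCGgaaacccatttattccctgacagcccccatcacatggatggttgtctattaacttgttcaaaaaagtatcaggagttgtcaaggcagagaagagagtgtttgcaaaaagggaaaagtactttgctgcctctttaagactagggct
Git1, chr10:62840144-62840443 in GRCr8, plus strand: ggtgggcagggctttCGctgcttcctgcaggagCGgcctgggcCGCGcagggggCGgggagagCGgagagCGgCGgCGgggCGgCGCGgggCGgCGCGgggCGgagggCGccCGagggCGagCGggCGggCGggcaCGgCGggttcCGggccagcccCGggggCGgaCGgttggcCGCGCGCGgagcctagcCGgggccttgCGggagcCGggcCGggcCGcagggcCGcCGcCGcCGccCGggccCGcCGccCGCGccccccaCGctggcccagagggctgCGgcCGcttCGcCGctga
Trim59, chr2:155589957-155590256 in GRCr8, minus strand: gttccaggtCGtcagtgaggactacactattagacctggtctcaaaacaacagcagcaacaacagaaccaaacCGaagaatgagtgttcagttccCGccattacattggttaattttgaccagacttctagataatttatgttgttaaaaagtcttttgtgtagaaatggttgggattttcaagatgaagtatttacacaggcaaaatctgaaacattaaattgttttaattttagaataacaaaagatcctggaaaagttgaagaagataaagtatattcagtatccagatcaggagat

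The Git1 window held 51 CpG at a GC content of 85.7%, and the Trim59 window held 3 at 34.7%. Slc2a1 lay between them with 25 CpG at 68.3% and Sox2 with 23 at 60.7%. Cortex cover of the domains behind these windows was 86.2% for Slc2a1, 96.9% for Sox2, 98.8% for Git1 and 96.8% for Trim59.

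Widths of the domains ran from 10015 to 81462 bp with a median of 12839 bp and an interquartile range of 11098 to 16774 bp. Together they spanned 7.52 Mb of the 103.573 Mb under SN peaks. Only the upper tail was very long, since 166 domains (33.1%) reached 15000 bp, 78 (15.6%) reached 20000 bp, 13 reached 30000 bp and 3 reached 40000 bp. The median of all SN peaks on these chromosomes was 993 bp. At the threshold the list ran on without a break, with domains of 10015, 10028 and 10029 bp just inside it and peaks of 9998, 9989 and 9988 bp just outside. The middle one of the latter is listed for Pea15, which encodes a death effector domain protein of astrocytes. In the motor cortex, 750 of 79517 peaks (0.943%) were 10000 bp or wider, with a median of 12951 bp and a maximum of 105312 bp, and they took up 7.88% of the bases under cortex peaks.

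**Figure D1:**
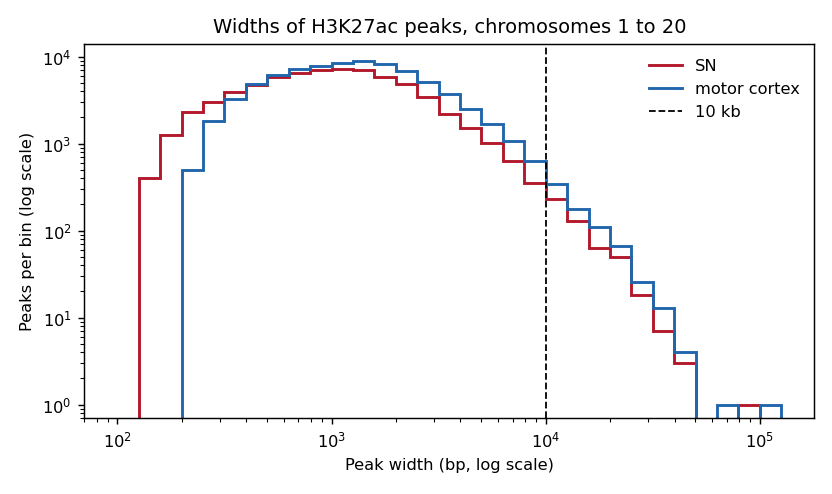
Number of peaks (log scale) by peak width in bp (log scale) in the pooled SN (red) and motor cortex (blue) lists, chromosomes 1 to 20, with a dashed line at 10 kb. The 501 SN domains form the right-hand tail beyond the line, where the cortex list holds 750 peaks, and neither list shows a break at that width.

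Among the 10 widest domains, 9 had no gene name in the tables used here and are given by position. The widest, at chr3:29269072-29350533, ran for 81.462 kb inside a cortex peak of 105.312 kb that also held a neighbouring domain of 20507 bp. The next, at chr12:13839705-13888891, was 49.187 kb wide and was met by 2 cortex peaks, the wider of 43.778 kb. On chromosome 10, the domain at chr10:67746089-67787961 (41.873 kb) was met by 6 cortex peaks of at most 17.369 kb. Several peaks were also listed at chr1:14948190-14988112, where 4 cortex peaks met a domain of 39.923 kb. In contrast, the domain at chr10:56374169-56412090 (37.922 kb) was matched by a single cortex peak of 37.81 kb. The other unnamed domains of this group lay at chr10:46206340-46242489 (36.15 kb), chr6:129784029-129819738 (35.71 kb), chr20:28652006-28686054 (34.049 kb) and chr3:147366736-147399616 (32.881 kb). The only named gene in this group was Gab1, a docking protein downstream of growth factor receptors, with 32.67 kb at chr19:27183350-27216019. Cortex cover of these 10 domains was 95.2% or more in each.

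Nearly every domain was acetylated in the motor cortex too. A cortex peak overlapped 499 of the 501 domains (99.6%) by at least 1 bp, against 65.1% of all SN peaks. A wide interval meets another peak more readily than a narrow one, so the middle base of each domain was also looked up, and it lay within a cortex peak in 484 domains (96.6%). This share was 41.7% for SN peaks under 1000 bp, 74.4% from 1 to 2 kb, 90.3% from 2 to 5 kb and 94.1% from 5 to 10 kb. It went on from 95.1% in the 224 narrowest domains to 100% in the 78 domains of 20000 bp or more. The domains thus stood at the end of a gradient in width rather than apart from peaks of 5 to 10 kb.

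Cortex peaks covered a median of 96.5% of a domain (interquartile range 88.4% to 99.3%) and 92.8% of all bases in domains. Cover was complete in 93 domains, at least 90% in 364 (72.7%), under 75% in 33 and under 50% in 10. By width class, 43.6% of the bases of SN peaks under 1000 bp were covered, 87.6% at 5 to 10 kb, 89.7% in the 224 narrowest domains and 96.0% in domains of 20000 bp or more. Across the 501 domains the rank correlation of width with cover was low (Spearman coefficient 0.18), a description over intervals that share the same pooled reads.

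The cortex list often held several peaks within a domain. A single cortex peak met 240 domains (47.9%), 2 peaks met 143 (28.5%), 3 met 74 (14.8%), 4 met 28 (5.59%) and 5 or more met 14, up to 7 in 2 domains. In all, 259 domains (51.7%, 95% Wilson interval 47.3% to 56.0%, a counting interval over domains) were met by 2 or more cortex peaks, against 5.76% of all SN peaks and 31.8% of those from 5 to 10 kb. The gaps between cortex peaks inside domains were short. Of 438 such gaps the median was 204.5 bp (interquartile range 130.5 to 525.75 bp), 378 (86.3%) were at most 1000 bp and the longest was 5819 bp. No gap from a domain to the next SN peak was under 140 bp, while the lower quartile of these cortex gaps was 130.5 bp. The 2 lists thus did not part peaks at the same shortest gap. How far this raised the counts of cortex peaks per domain was not tested. Counted per 10 kb of SN peak, cortex peaks were fewer in domains (1.25) than in SN peaks of 5 to 10 kb (2.10).

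Overlap with a broad cortex peak was common. A cortex peak of 10000 bp or more overlapped 319 domains (63.7%, Wilson interval 59.4% to 67.8%, again a counting interval over domains), against 2.3% of all SN peaks and 10.3% of those from 5 to 10 kb. An overlap of 1 bp is enough here and in the counts below, so the broad cortex peak need not cover the domain. Wide intervals also meet each other more readily than narrow ones. The share was 46.9% in the 224 narrowest domains and 89.7% in those of 20000 bp or more. The widest cortex peak was wider than the domain itself in 151 cases (30.1%) and narrower than 5000 bp in 26, beside the 2 domains that no cortex peak met. Seen from the cortex, 312 of the 750 broad cortex peaks (41.6%) overlapped a domain, 677 overlapped an SN peak of any width and 73 overlapped none.

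**Figure D2:**
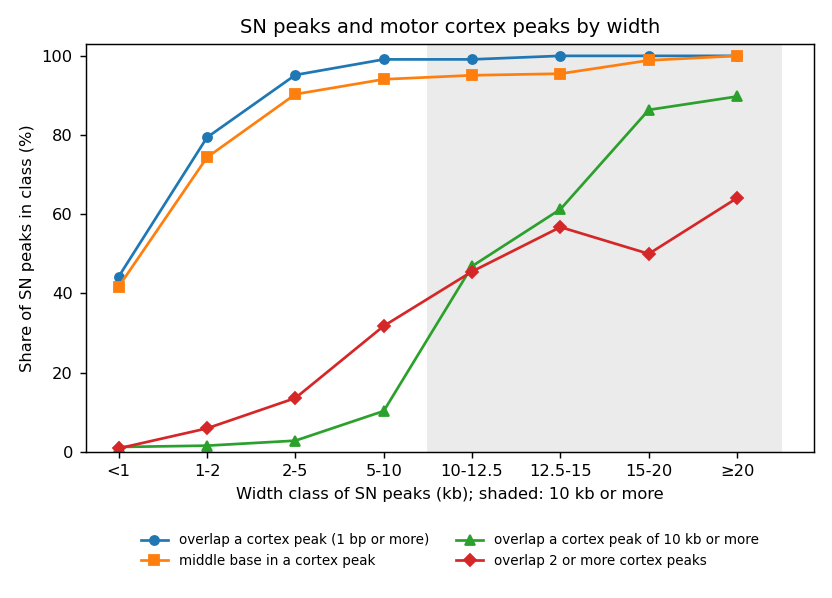
Share of SN peaks (%) in 8 width classes (kb) that overlap a cortex peak, have their middle base in one, overlap one of 10 kb or more, or overlap 2 or more, with the domains shaded. The shares for any overlap and for the middle base are already 99.1% and 94.1% at 5 to 10 kb, while the share with a broad cortex peak goes from 10.3% there to 89.7% at 20 kb or more.

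In 222 domains a single cortex peak met the domain and met no other domain, so their widths were compared pair by pair. The pairs were chosen on the SN width and leave out the 259 domains met by 2 or more cortex peaks. Their likeness in width therefore holds only for domains that the cortex list does not split. The cortex peak may also reach narrower SN peaks. The ratio of cortex to SN width had a median of 1.01 (interquartile range 0.968 to 1.105). The cortex peak was the wider in 119 of these pairs, and 137 pairs agreed in width within 10%. Over the 222 pairs the widths correlated with a Spearman coefficient of 0.78 and, on the log scale, a Pearson's r of 0.78, both given as descriptions across intervals from 2 pooled lists, since intervals are not replicates.

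Many edges of the domains fell within 500 bp of the end of a cortex peak. For the 998 edges of overlapped domains, the signed distance from the SN edge to the outer end of the cortex peaks had a median of 0 bp. Its interquartile range was -280.25 to 297.25 bp, where values below 0 mean that the cortex peak stopped short. The median of 0 bp means that overshoot and shortfall balanced, not that the edges coincided. The distance was within 500 bp at 599 edges (60.02%), and no such share is given here for narrower SN peaks. The cortex peak ran more than 1 kb beyond the domain at 161 edges (16.1%) and stopped more than 1 kb short of it at 98 (9.82%). Of the 517.5 kb of overlapped domains not under a cortex peak, 305.1 kb (59.0%) lay at the edges and the rest in inside gaps.

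Cortex cover fell steeply across these edges. It was 96.3% at 5000 bp inside a domain, 87.9% at 1000 bp inside, 63.2% at 100 bp inside and 33.5% at 100 bp outside. Further out it came back to 40.5% at 1000 bp and 43.6% at 5000 bp, and it was 41.0% at 10000 bp. SN peaks outside the edge followed a similar course, with 50.1% of positions covered at 1000 bp and 47.5% at 10000 bp. Around SN peaks of 5 to 10 kb the fall was much alike, so it was not particular to the domains. Cortex cover there was 87.7% at 1000 bp inside, 60.6% at 100 bp inside and 32.8% at 100 bp outside. Further out the cover around these peaks was lower, at 39.6% for SN and 31.7% for cortex peaks at 1000 bp.

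**Figure D3:**
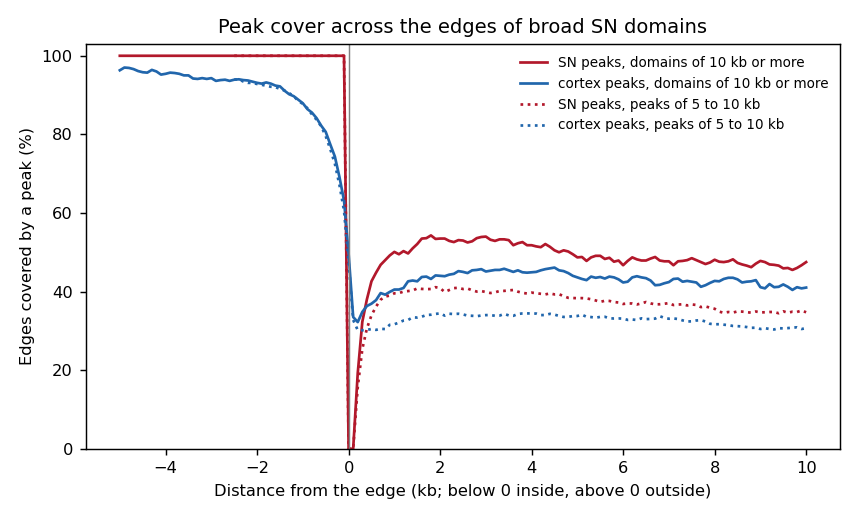
Share of edges (%) covered by an SN peak (red) or a cortex peak (blue) by distance from the edge in kb, inside (below 0) and outside (above 0), for the domains (solid) and for SN peaks of 5 to 10 kb (dotted). Cortex cover drops from 87.9% at 1 kb inside a domain to 33.5% at 100 bp outside, and from 87.7% to 32.8% for SN peaks of 5 to 10 kb. From 1 kb outward both solid curves lie above the dotted ones.

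Only 2 domains had no cortex peak. The 10.993 kb domain at chr1:55025700-55036692, listed as intergenic for Dact2, a regulator of Wnt and TGF-beta signalling, had 32 other SN peaks but 3 cortex peaks within 100 kb. The 10.639 kb domain at chr16:20292298-20302936, listed as intergenic for Lzts1, a leucine zipper protein of the postsynaptic density, had 26 other SN peaks and 0 cortex peaks within 100 kb. Domains as a whole had a median of 23 other SN peaks (interquartile range 17 to 30) and 19 other cortex peaks (14 to 24) within that distance. Around both domains cortex peaks were thus far fewer than the lower quartile of all domains, while the number of SN peaks was within the usual range at Lzts1 and above the upper quartile at Dact2. What the cortex list lacks there cannot be read as absence of the mark, since the lists hold only called peaks.

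Low cover was seen in a further 8 domains. An unnamed domain at chr5:142974366-142985089 was 29.7% covered, the least of these, and other values were 38.5% (chr6:104994967-105006957, Nek9, a mitotic kinase), 40.0% (chr3:37486348-37497367), 44.6% (chr6:105012044-105027561, Tmed10, a cargo receptor of the early secretory pathway) and 45.0% (chr3:37412095-37424929). The Nek9 and Tmed10 domains were neighbours on chromosome 6, and the pair on chromosome 3 lay in 1 chain of 3 domains whose cover did not exceed 74.9%. Picalm, which encodes a clathrin assembly protein of endocytosis, had a 10.405 kb domain at its promoter (chr1:144054982-144065386) that was 43.0% covered by 2 cortex peaks. Pbx3, a homeodomain cofactor of Hox proteins, had an 11.292 kb domain (chr3:17532612-17543903) in which 4 cortex peaks of at most 2128 bp covered 45.0%, and 54 other SN peaks but 7 other cortex peaks lay within 100 kb. The last was unnamed, at chr18:15301529-15311696, with 46.4%. Among the 33 domains under 75% cover, the widest was the 27.712 kb one at chr19:36618246-36645957, which was 60.9% covered by 7 cortex peaks of at most 5170 bp.

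**Figure D4:**
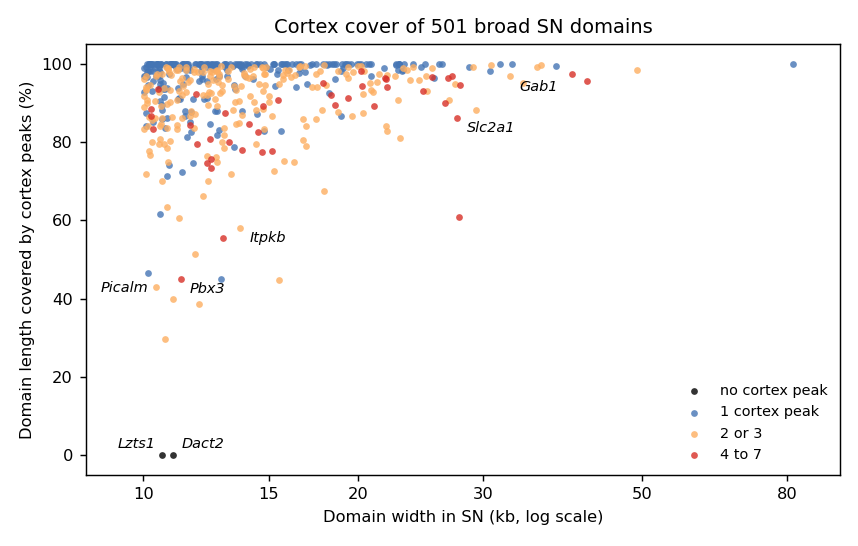
Share of each domain's length under cortex peaks (%) against its width in kb (log scale) for the 501 domains, coloured by the number of overlapping cortex peaks. Most points lie above 90%, and the domains named Dact2 and Lzts1 are the ones at 0%.

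Neighbouring domains and other SN peaks were counted around each domain. Another domain was found within 50 kb of 185 domains (36.9%) and within 100 kb of 211 (42.1%). No such share is given here for narrower SN peaks, so whether domains are closer together than other peaks was not tested. Some neighbours were parted by a short gap only, such as 143 bp between the Mir9-1 domains. Joined at 50 kb, the domains formed 81 chains, 62 of 2 domains, 15 of 3 and 4 of 4. The 4 longest in number lay at chr3:14302371-14428508, chr19:11060146-11173062, chr3:147321996-147413337, which ends in a domain named through the cortex for Fam83d, and chr3:58326913-58418006, which begins with the domain of Wipf1. The cortex joined some of these neighbours, as 11 cortex peaks each spanned 2 or more domains, 23 domains in all, and 1 of 77.582 kb held 3. The next SN peak of any width lay within 1 kb of 418 domains (83.4%) at a median gap of 253 bp, and no gap was under 140 bp. For SN peaks of 5 to 10 kb that share was 71.6%, and for those under 1000 bp it was 44.6%. The highest counts were 60 on chromosome 1, 60 on chromosome 3 and 48 on chromosome 10, and as a share of a chromosome's SN peaks they ranged from 0.272% on chromosome 14 to 1.12% on chromosome 3.

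Gene names were available for a chosen part of the domains. The names come from tables of peaks that the authors called differentially acetylated with rotenone, which give 1 gene per peak, and neither the direction nor any value of those tables was used. A row with the same interval existed for 51 domains (10.2%), against 2.95% of all SN peaks and 11.6% of those from 5 to 10 kb, so the share was no higher in domains than in the next narrower class. The 50 with a symbol in the RefSeq gene table named 47 genes. Rows for overlapping cortex peaks named 96 more domains, and 355 stayed unnamed. Where a domain was named both ways, 27 of 28 times the gene was the same. None of 42 markers of oligodendrocytes, astrocytes, microglia, dopaminergic neurons and cortical neurons was among the names, and since most domains have no name the tissue labels could not be checked in this way. Domains with a row were close to the others in cover, with a median of 95.6% against 96.5%, and 60.8% against 50.7% were met by 2 or more cortex peaks.

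Signalling genes were named for 14 domains of 10.373 to 32.67 kb, 10 of which (71.4%) were at least 90% covered by cortex peaks, close to the 72.7% of all domains. After Gab1, the widest was at Ralgds, an exchange factor for Ral GTPases that acts downstream of Ras. A 22.853 kb domain at its promoter (chr3:11839340-11862192) lay whole within a cortex peak of 23177 bp, while the adjoining 17.837 kb domain over its UTR (chr3:11862497-11880333) was 88.0% covered by 2 peaks. Pim3, a serine/threonine kinase that supports cell survival, had 20.36 kb at its promoter (chr7:119939003-119959362), met by 3 cortex peaks. Git1, a scaffold of focal adhesions and synapses, had 19.089 kb (chr10:62334055-62353143) beside a cortex peak of nearly equal width, 18994 bp. Sulf2, an extracellular heparan sulfate endosulfatase, had 17.229 kb covered whole.

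Lower cover among the signalling genes was seen at Itpkb, an inositol trisphosphate kinase, whose 13.689 kb intronic domain (chr13:92137027-92150715) was 58.1% covered by 2 cortex peaks. Pde2a, a phosphodiesterase that breaks down cGMP and cAMP, had 12.296 kb met by 4 cortex peaks at 74.5%. Rasgrp3, an exchange factor for Ras, had 10.809 kb at 78.4%. Adora1, the adenosine A1 receptor that dampens neuronal excitability, had a 12.426 kb intronic domain at 96.7% cover, although its widest cortex peak reached only 5604 bp. At Sgk1, a kinase induced by glucocorticoids and osmotic stress, the 10.373 kb domain (chr1:22978852-22989224) and its 1 cortex peak of 10709 bp were nearly the same interval. Prkacb, a catalytic subunit of protein kinase A, had 10.9 kb at 90.3%. Ptp4a3, a tyrosine phosphatase, had 15.902 kb at 97.6%, and Dennd5a, an effector and regulator of Rab GTPases, had 14.31 kb at 90.2%.

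Transcription factors and nuclear regulators were named for 8 domains of 10.278 to 21.886 kb. Utf1, a chromatin factor of undifferentiated embryonic cells, was the nearest gene to the widest, an intergenic domain of 21.886 kb (chr1:194687434-194709319) that 3 cortex peaks covered at 84.1%. Klf13, a Krüppel-like zinc finger factor, had 18.773 kb at 98.1% and, through the cortex, a second domain of 16.97 kb. Midn, a nuclear protein that takes part in the turnover of short-lived proteins, had 17.938 kb at 99.6%. Bcl6, a transcriptional repressor, had a 12.435 kb domain at its promoter (chr11:76851117-76863551) that lay whole within a cortex peak of 14513 bp, and it was isolated, with 3 other SN peaks within 100 kb. Zbtb7b had 12.353 kb at 92.7%, Irf2bpl a domain of similar width at 97.8% and Zfp335 10.278 kb at 93.0%. Pbx3, described above, had the lowest cover in this group. Sox2, the factor that maintains neural stem cells and is retained in glia, was outside the role lists and had one of the widest named domains, 24.957 kb at its promoter (chr2:117534472-117559428), with 3 cortex peaks covering 96.9%.

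Survival and membrane proteins were named for 5 domains, of which 4 were listed at promoters, against 43.1% of all listed domains, and 2 were covered by 90% or more, against 72.7% of all domains. Slc2a1, the glucose transporter GLUT1 of the blood-brain barrier and astrocytes, had the domain met by the most cortex peaks among the named ones. Its 27.58 kb at the promoter (chr5:132713313-132740892) were met by 7 cortex peaks of at most 7827 bp, which covered 86.2%. Mcl1, an antiapoptotic relative of BCL2, had 12.657 kb (chr2:183224427-183237083) covered at 76.2% by 2 peaks that left its middle base bare. Cd81, a tetraspanin, had 14.148 kb covered whole by 1 peak of 15121 bp, and Tmbim1, a transmembrane regulator of cell death, had 13.102 kb at 96.8%.

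Cytoskeleton and trafficking genes were named for 7 domains of 10.035 to 20.814 kb, with cover from 88.3% to 99.3%, and no cortex peak there was wider than its domain. Slain1, a microtubule plus-end protein, had 20.814 kb over its UTR (chr15:80514382-80535195) at 94.9%. Septin7, a core septin, had 14.121 kb at 91.7%, Dtnbp1, the dysbindin subunit of a complex for lysosome-related organelles, had 12.304 kb at 91.2%, and Myo18a, an unconventional myosin, had domains of 12.684 and 10.035 kb at 99.3% and 91.7%. Wipf1, which binds the actin regulator WASP, had 10.267 kb met by 4 cortex peaks, and Plekhb1, a pleckstrin homology domain protein, had 10.129 kb at 97.9%.

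Among the other named genes, Aatk, an apoptosis-associated kinase of neurons, had 14.728 kb met by 4 cortex peaks, 1 of them 29925 bp wide and shared with a neighbouring domain. That wide peak ended at chr10:105310389, shortly after the start of the Aatk domain at chr10:105310062, so it covered only the edge of this domain. Kcna5, a voltage-gated potassium channel, was the nearest gene to an intergenic domain of 16.571 kb within a broader cortex peak of 28750 bp. Ugt8, the enzyme that makes the galactosylceramide of myelin, had a 10.842 kb intronic domain (chr2:214290967-214301808) met by 3 cortex peaks at 74.9%. Plekhg2 had 16.104 kb at 96.5%, and Adpgk, an ADP-dependent glucokinase, had 14.71 kb at 92.9%. The remaining domains, named for C3h9orf50 (21.966 kb), Dnaaf9 (14.871 kb), Ttc12 (12.488 kb), Dmac1 (10.312 kb) and Trim59 (10.056 kb), were covered at 95.6% to 99.6%.

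Over all 50 named domains, 35 (70%) were at least 90% covered, against 72.7% of all domains, and 31 (62%) were met by 2 or more cortex peaks, against 51.7%. A cortex peak of 10 kb or more met 26 (52%), against 63.7%, and at 12 (24%) a cortex peak was wider than the SN domain, against 30.1%.

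**Figure D5:**
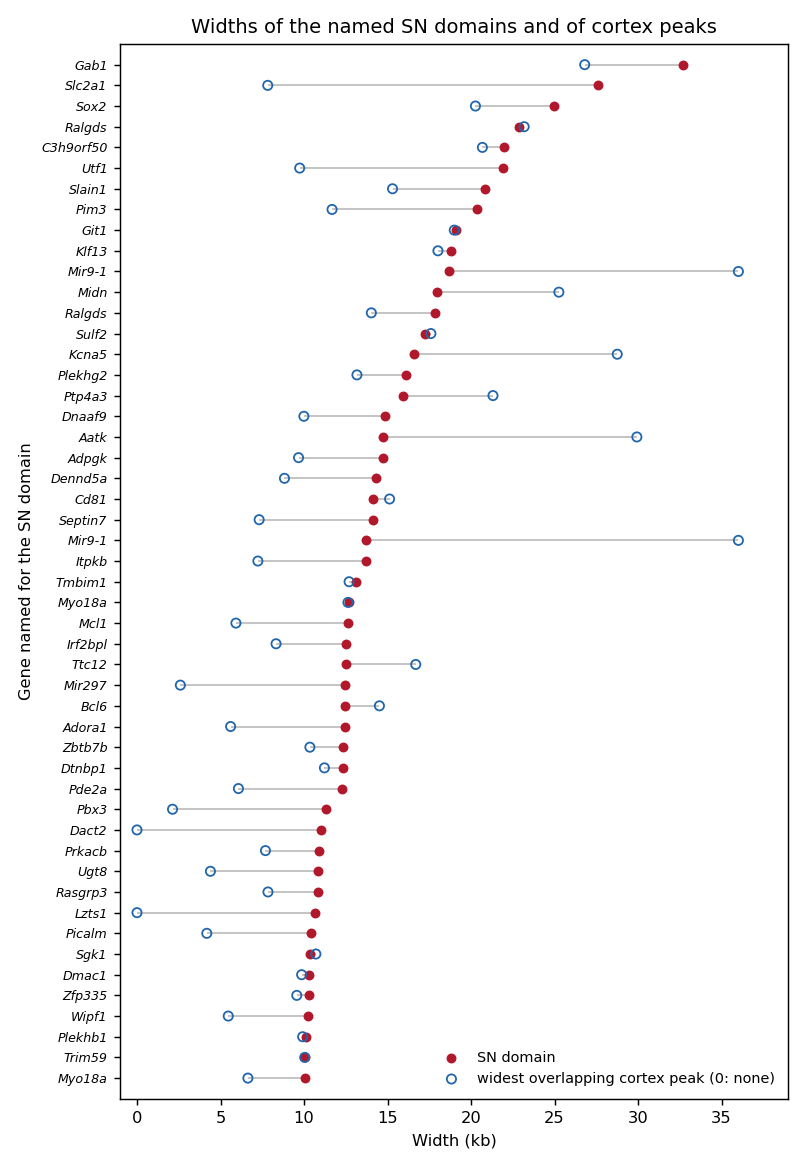
Width in kb of the 50 named SN domains (filled red) and of the widest cortex peak overlapping each (open blue, 0 where there is none), ordered by SN width. Open points lie to the right of the filled ones at 12 domains, furthest at both Mir9-1 domains, and far to the left at Slc2a1, where the widest of 7 cortex peaks is 7.827 kb.

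Names reached only through an overlapping cortex peak were given to 96 domains. Those mentioned here were picked and grouped after all the names had been seen. Other names of this set, such as Hamp, Pgc, Lipc and Endou, were left outside the groups. The share of glial or neuronal genes was not counted, and none of the 42 markers looked for was among the names. Of genes known in glia, Sparcl1, a matricellular protein of astrocytes, had 11.96 kb covered whole, Glul, the glutamine synthetase of astrocytes, had 15.624 kb covered whole (chr13:66022733-66038356), and Gpr37l1, an astrocyte receptor, had 13.901 kb at 99.8%. Qki, an RNA-binding protein needed for myelin, had 17.853 kb (chr1:50382918-50400770) at 95.1%, also listed for the neighbouring Cahm, which had a further domain of 20.052 kb. Sox8, a SoxE factor of the oligodendrocyte lineage, had 20.201 kb at 99.5%, Hapln2, a link protein at nodes of Ranvier, had 11.253 kb at 95.5%, and Car2, the carbonic anhydrase of oligodendrocytes, had 10.305 kb at 85.0%. These names require an overlapping cortex peak, so the cover of such domains is given as a value only, beside the median of 96.5% over all domains.

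Neuronal genes named in the same way included Mapt, which encodes the microtubule protein tau, with 19.548 kb covered whole (chr10:89166436-89185983), Dpysl2, a protein of axon growth, with 21.978 kb at 93.9%, and Vamp2, the synaptic vesicle SNARE, with 12.7 kb at 98.3%. Outside the neuronal genes, Dnm2, a dynamin of endocytosis, had domains of 21.874 and 10.7 kb, the wider met by 6 cortex peaks.

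Receptor, transporter and other signalling genes also appeared among these names. Fgfr2, a fibroblast growth factor receptor, closed a chain of 3 domains with 27.359 kb (chr1:184824022-184851380), and Ptpn11, the SHP2 phosphatase that binds Gab1, had 21.049 kb met by 5 cortex peaks. Slc6a6, the taurine transporter, was named for 3 domains in a row of 16.912, 12.676 and 11.903 kb, covered at 78.9% to 89.2%. Smad7, an inhibitor of TGF-beta signalling, was named for adjoining domains of 15.017 and 14.049 kb. Klf9, a Krüppel-like factor, had 23.903 kb at 99.1%, and Txnip, an inhibitor of thioredoxin, had 11.099 kb at 98.3%.

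By position relative to genes, 22 of the 51 domains with a row (43.1%) were listed at promoters, which the authors took as within 3 kb of a start, 6 in UTRs, 4 in exons, 6 in introns and 13 (25.5%) between genes. Of the 2008 narrower listed SN peaks, 17.4% were listed at promoters and 48.6% between genes. A wide interval reaches a start more readily than a narrow one, and the part of width in this difference was not tested.

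Promoter letters were compared for the genes whose domain is listed within 1 kb of a start. At the median their promoters were CpG rich, as were those at narrower peaks listed in the same way. Of 18 such genes at domains, 17 were found in the RefSeq promoter table with 19 promoters, whose median GC content was 65.0% and median CpG count 23 in 300 bases (3 to 51). Narrower listed SN peaks gave 257 promoters with medians of 63.7% and 22, and all 33469 promoters in the table had medians of 51.7% and 7. The ratio of observed to expected CpG had medians of 0.717, 0.748 and 0.392 in the same order. Promoters at domains were mixed, and some did not exceed the median count of 7 CpG of all promoters. These had 7 CpG at Ralgds, 6 at Rasgrp3 and Plekhb1, and 3 at Trim59 and at an Sgk1 promoter. A GC box (GGGCGG on either strand) was in 68.4% of promoters at domains, 68.9% at narrower listed peaks and 33.1% of all promoters. A TATA box (TATAAA on either strand) was in 4 of the 19 (21.1%), 6.23% and 14.2%, and CCAAT on either strand was in 36.8%, 34.2% and 37.5%. An AP-1 site (TGANTCA) was in 5.26%, 5.84% and 7.33%, an E-box (CACGTG) in 5.26%, 12.45% and 6.42%, and a CRE (TGACGTCA) in 0%, 5.06% and 1.83%, each searched on both strands. None of these motifs contains another. With 19 promoters each is worth 5.26%, so the shares at domains are coarse, and a match is a run of letters and not a bound site. Sgk1 gave several of the 19 promoters, with TATA box matches in more than 1 of them and the only AP-1 match.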

How the data were processed

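H3K27ac was profiled by ChIP-seq in both brain regions of 9 rats (38 runs, 4 of them input). The authors trimmed reads with Trim Galore 0.6.7, checked them with FastQC 0.11.9, used Bowtie2 2.4.4 for alignment to mRatBN7.2 and Picard 2.6.0 to drop duplicates, and called peaks with MACS2 2.2.7.1 on the merged reads of a region against pooled input. The deposited lists give positions alone, without a height or read count for any sample, and any filter between calling and deposit is not given in the sources used here. Width follows from the depth of the merged reads and the caller's joining of nearby enrichment, so widths of the 2 lists need not be on one scale. The study states that coverage was higher in the motor cortex than in the SN, and its part in the larger number of broad cortex peaks was not tested.

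From these lists, starts were read as counted from 0 and printed counted from 1. Overlap meant 1 bp or more. Intervals, cover, gaps and edges were computed with Python 3.11.15, pandas 2.3.3, numpy 2.4.6 and scipy 1.17.1, after the functions had been tested on simulated intervals with known answers. Wilson intervals have a confidence of 95%. They count domains as if independent, although neighbouring domains can share a cortex peak, and they do not measure the spread between rats. Gene names and gene positions came from the study's tables of differentially acetylated peaks, matched by the whole interval, and the fold changes, p-values and FDR in those tables were not used. All 2076 SN rows with a name matched the list, as did 9186 of 9187 cortex rows. RefSeq sequences (GRCr8) were matched by symbol.

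Named are the 10 widest domains, all domains with a name grouped by role, those of lowest cover and those at the width threshold. The domains, gene lists and measures were chosen with earlier results of these data known. Peaks on other chromosomes, 2 of them 10 kb or wider, were left out, and the sequences under the domains were not analysed here.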

Additional observations from a re-analysis of the deposited data

How the results depend on the processing

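Each share was recomputed with other settings, and 24 of 33 recomputed values moved beyond the interval of the reported value or by over 1.5 times for a count, while 9 did not. Several settings change the definition itself, such as the minimum width or the neighbour distance, so some values had to move. The tally is a description and does not measure how firm the results are. With a minimum width of 8000 bp there were 834 domains with a median cover of 95.5%, 45.4% met a cortex peak of 10 kb or more, 41.8% had another domain within 50 kb and 93 had a gene name. With 15000 bp there were 166 domains, of which 100% were overlapped, 99.4% at their middle base, with a median cover of 97.8%, 56.6% met by 2 or more cortex peaks, 88.0% by one of 10 kb or more, 27.1% with a neighbour within 50 kb and 17 named. Merging peaks across 1000 bp first gave 1294 domains, a median cover of 85.8%, 83.5% at the middle base and 43.5% with a neighbour. Cortex peaks of 1000 bp or more alone left 46.3% of domains met by 2 or more. Requiring 50% of a domain to be covered gave an overlap of 98.0%, and a reciprocal 50% with 1 cortex peak gave 82.2%. A cortex minimum of 10987 bp, which the same share of cortex peaks passes as SN peaks pass 10000 bp, gave 52.7% with a broad cortex peak. Neighbours at the shorter distance tried were found for 24.2% and within 100 kb for 42.1%. Names through the cortex raised the named domains to 146. No paired analysis was possible because each list pools all rats of a region, and for the same reason no replicate could be left out. Depth per rat is unknown.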
